A study of Sus scrofa with 15 samples.

Results

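The RAB genes encode small GTPases that direct membrane traffic, and their transcripts were examined here in pig oocytes before and after in vitro maturation. Members were all genes whose symbol is RAB, a number and at most 2 letters. This rule fitted 59 symbols among 22516 genes, and 57 of them are RAB GTPases. The symbols RAB3IP, an exchange factor, and RAB5IF, a RAB5-interacting factor, fit the letters but are no GTPases and were counted apart. The transcripts of 54 of the 57 were found, and 39 passed the filter on low counts.

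RNA was sequenced from 15 libraries of pooled *Sus scrofa* oocytes, 5 in each of 3 groups. GV oocytes, at the germinal vesicle stage, came straight from fresh ovarian follicles and had no polar body. MII oocytes, at metaphase II, had been matured in vitro within their cumulus complexes for 44 h and showed a first polar body. The ‘damaged’ oocytes had the same 44 h of culture but no first polar body, and that criterion alone defines the group. MII and ‘damaged’ libraries together are called MIX, as in the study. They are also called matured here, which means cultured for maturation, with or without a first polar body. Likewise, after maturation means after this culture. By the methods, oocytes were gathered in 5 independent collections and the same number was pooled for each library. The labels do not tie a library's number to a collection or to animals, so p-values here measure the spread between these libraries.

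A RAB protein switches between an inactive form bound to GDP and an active form bound to GTP. Exchange factors load GTP, GTPase activating proteins (GAPs) promote its hydrolysis, and effectors such as tethers and motor adaptors bind the active form. A lipid tail added by geranylgeranyl transferase anchors the protein to its membrane, and carrier proteins return it to the cytosol. In oocytes RAB proteins are known for recycling endosomes, for the transport of cortical granules and for vesicles that take part in spindle positioning.

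Estimated counts summed to 6.40 to 23.6 M per library. GV replicate 3 had the lowest total and differed from the other GV libraries in that 13.3% of its counts fell in its top 10 genes, against 7.18 to 7.47% in those and 12.7 to 14.2% in matured libraries. It was left out of the fits and is given separately. The 11 oocyte markers found, including *ZP2* and *GDF9*, summed to 17806 to 20429 CPM (a count divided by the library total, here without further scaling) in GV and 7437 to 10025 in matured libraries. Single markers of this list went both ways. From GV to MIX the mean of *ZP2* went from 3515 to 1859 CPM and that of *GDF9* from 3108 to 271 CPM. Against these, *OOSP2* went from 449 to 1193 CPM and *KPNA7* from 1989 to 2442 CPM. The 7 cumulus and granulosa markers found, of 13 in the list, summed to 2.16 to 7.31 and 0.808 to 4.90 CPM, and only *STAR* passed the filter. The 2 stroma and theca markers found summed to 2.44 to 4.68 and 0.631 to 6.30 CPM, and the 4 blood and immune markers to 0.476 to 1.20 and 0.283 to 1.65 CPM. Their part in the results was not tested. The column names of the gene table contradict the file labels for 7 of 15 libraries, and file labels were used throughout. By these labels the most similar library had the same stage (GV or matured) for 15 of 15 libraries, but for only 3 of 10 matured libraries did it lie in the same group, so the MII and ‘damaged’ comparison rests on the labels alone.

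To order the genes by level, TPM was used, an abundance corrected for transcript length. *RAB11A*, of recycling endosomes, and *RAB7A*, of late endosomes and lysosomes, led the family in GV oocytes with 810 ± 160 and 637 ± 38.4 TPM (SD, n = 4). In MIX oocytes *RAB11A* stood at 705 ± 54.3 TPM and *RAB7A* at 82.3 ± 14.8 TPM (n = 10). The GV level of *RAB11A* overlapped its matured level, whereas that of *RAB7A* did not. Behind them in GV came *RAB2A*, of traffic between ER and Golgi, at 170 TPM, *RAB8B* at 116 TPM and *RAB10* at 114 TPM, both of secretory and plasma membrane traffic. *RAB2B*, at 108 TPM, lay within the spread of the last 2 named. In MIX oocytes the order was *RAB11A*, then *RAB27A*, known for secretory granule docking, at 99.9 TPM, *RAB2A* at 97.2 TPM, *RAB7A*, and *RAB1A*, of ER to Golgi transport, at 76.1 TPM.

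The sums below cover the 54 RAB GTPase genes with transcripts found, without *RAB18* and *RAB24*, which were not analysed. Together these genes held 2759 ± 18.6 TPM in GV, 1433 ± 121 TPM in MII and 1485 ± 119 TPM in ‘damaged’ libraries. *RAB11A* took 29.4% ± 6.0 of this sum in GV and 48.3% ± 2.12 in MIX, while *RAB7A* took 23.1% ± 1.46 and 5.62% ± 0.724. The lowest matured share of *RAB11A* was 45.0% and the highest GV share 36.4%. For *RAB7A* the highest matured share was 6.49% and the lowest GV share 21.1%. A single gene thus held close to the sum of the other RAB transcripts counted here after maturation.

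**Figure D1:**
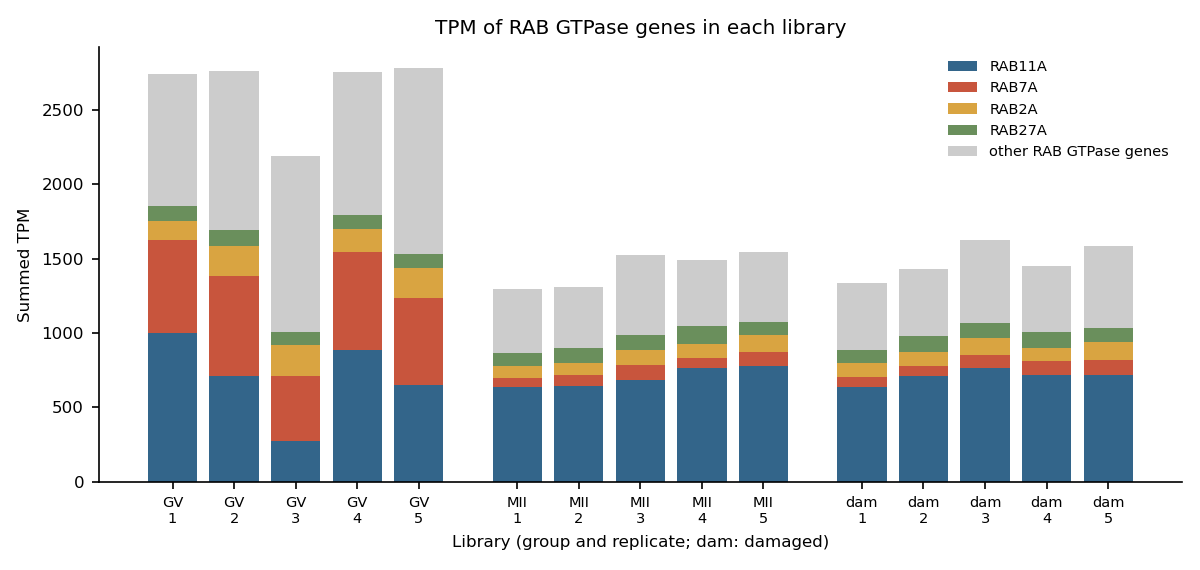
Summed TPM of the 54 RAB GTPase genes with transcripts found (vertical axis) in each of 15 libraries, split into RAB11A, RAB7A, RAB2A, RAB27A and all others of these. GV libraries other than replicate 3 reach 2740 to 2784 TPM and matured libraries 1292 to 1624 TPM, and the RAB7A block shrinks from 637 to 82.3 TPM on average. The median of all genes tested was lower in matured libraries too (log2 fold change −1.06 on library totals).

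Gene levels were compared with limma-voom over 13228 genes after scaling by TMM factors, which set the libraries to a common level by most of their genes. CPM below are on this scale. A gene is said to have risen or fallen at an FDR under 0.01, adjusted by Benjamini-Hochberg over all genes, and to be a DEG if its log2 fold change also exceeded 2 in size. Among the 39 tested RAB GTPases 5 were downregulated DEGs in MIX against GV (12.8%), against 16.7% of all genes tested. Upregulated DEGs numbered 0 of 39, against 4.27% of all genes, and 0 also by edgeR and DESeq2. By FDR alone 7 RAB genes rose (17.9%, all genes 30.3%) and 16 fell (41%, all genes 37.2%). The median log2 fold change was −0.38 for the 39 RAB genes and −0.16 for all genes.

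The scaling decides part of this. On library sizes alone the median of all genes was −1.06 and that of the RAB genes −1.26, 8 RAB genes were downregulated DEGs, 31 fell and only *RAB14* rose (all genes 28.6%, 60.5% and 12.1%). Upregulated DEGs were 0 of 39 on library sizes by limma, where 0.348% of all genes were. Levels relative to other genes and amounts per oocyte cannot be told apart in these bulk libraries. As poly(A) RNA was read, a change in amount and a change in poly(A) tail that alters capture cannot be told apart in them. The same limit holds for transcript shares. For any other cell type carried along, fewer cells and less RNA per cell cannot be told apart either. Of the 7 genes that rose with TMM factors, *RAB14* and *RAB27A* kept a positive value on library sizes (0.96 and 0.13, the second with an FDR of 0.216), and *RAB11A*, *RAB13*, *RAB1A*, *RAB8A* and *RAB28* turned negative, with −0.055 for *RAB11A*. Small changes also rested on settings and on single libraries. With all 5 GV libraries *RAB13* and *RAB28* no longer passed as risen, nor *RAB2B*, *RAB8B* and *RAB3C* as fallen (limma FDR 0.0168 to 0.113). With summed estimated counts *RAB8A* (0.13) and *RAB8B* (−0.36) did not pass, and with no filter *RAB2B*, *RAB30* and *RAB3B* did not (limma FDR 0.0101 to 0.0120). Of the genes that rose, *RAB8A* no longer passed without GV replicate 2, 4 or 5 (0.50, 0.50 and 0.52), *RAB13* without GV replicate 1, 4 or 5 (0.83, 0.80 and 0.86) and *RAB28* without any one of GV replicates 1, 4 and 5, MII replicates 1 and 2 or ‘damaged’ replicates 1 and 2 (0.34 to 0.45). Of those that fell, *RAB3B* did not pass without GV replicate 2 or 5 (−0.40 and −0.41), *RAB8B* without GV replicate 1 or 4 (−0.26 and −0.45), *RAB2B* without GV replicate 1 or 4 or ‘damaged’ replicate 5 (−0.32, −0.39 and −0.39), *RAB30* without GV replicate 1, 2 or 5, MII replicate 4 or ‘damaged’ replicate 5 (−0.48 to −0.41), and *RAB1B* without GV replicate 5 (−1.17).

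**Figure D2:**
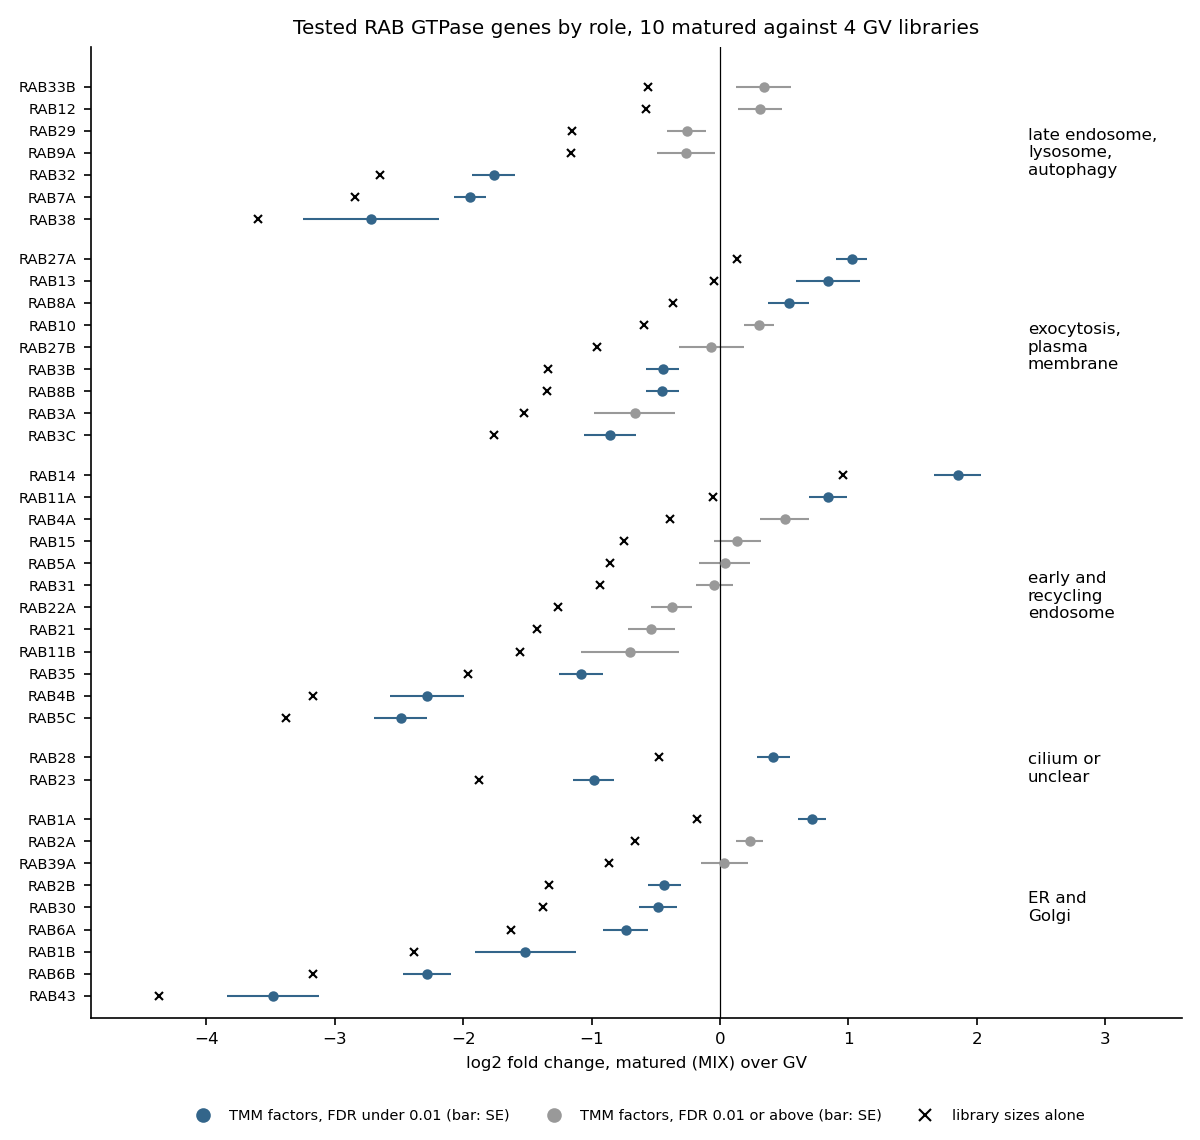
Log2 fold change of MIX over GV (horizontal axis) for 39 RAB GTPase genes grouped by role, with TMM factors (circles, bar SE) and on library sizes (crosses). The values run from −3.48 for RAB43 to 1.85 for RAB14, and the crosses lie to the left of the circles throughout.

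The 5 downregulated DEGs belong to 3 roles. *RAB43*, which acts in ER and Golgi traffic, had 4.59, 7.95, 5.76 and 11.7 CPM in GV replicates 1, 2, 4 and 5. In MII replicates 1 to 5 it had 0.656, 0.0754, 1.14, 0.629 and 0.615 CPM, and in ‘damaged’ replicates 0.602, 1.13, 0.757, 1.00 and 0.398 CPM. Every GV library lay above every matured one. Its log2 fold change was −3.48 (SE 0.36), and the limma FDR was 1.88e-08. The counts behind the matured values were 1 to 15.8 per library. *RAB43* (ENSSSCG00000037568) lies on chromosome 13, from 71564250 to 71596318 in Sscrofa11.1, by the RefSeq entry of the same symbol.

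*RAB6B*, a Golgi RAB known mainly from neurons, had 11.2, 12.2, 11.11 and 16.5 CPM in GV. In MII it had 3.03, 2.50, 2.03, 2.70 and 3.2 CPM, and in ‘damaged’ 3.84, 2.35, 1.63, 1.95 and 3.43 CPM. The groups did not overlap, and the log2 fold change was −2.28 (SE 0.19, limma FDR 6.21e-10). Its paralog *RAB6A*, the widely expressed form at the Golgi, also fell. It had 106 ± 8.94 CPM before and 65.4 ± 16.4 CPM after maturation, a log2 fold change of −0.73 (SE 0.17). *RAB6B* (ENSSSCG00000036503) lies on chromosome 13, from 75012267 to 75075324.

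*RAB5C*, one of the RAB5 proteins of early endosomes, had 34.1, 26.3, 23.4 and 40.6 CPM in GV. It had 3.82, 4.67, 6.69, 3.49 and 8.35 CPM in MII and 8.25, 3.67, 5.16, 7.34 and 5.27 CPM in ‘damaged’ libraries. The lowest GV library was above the highest matured one. The log2 fold change was −2.49 (SE 0.21, limma FDR 7.12e-10). *RAB5A*, its better known paralog, stood at 4.14 TPM in GV, where *RAB5C* had 46.8 TPM, and its log2 fold change of 0.037 did not pass the test. *RAB5C* (ENSSSCG00000032467) lies on chromosome 12, from 20613991 to 20635952.

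*RAB4B*, of fast recycling from early endosomes, had 4.43, 5.78, 5.33 and 9.46 CPM in GV. In MII it had 1.27, 1.92, 2.21, 0.659 and 0.845 CPM, and in ‘damaged’ 0.857, 0.681, 2.57, 1.16 and 1.44 CPM. All GV libraries lay above all matured ones. The log2 fold change was −2.28 (SE 0.28, limma FDR 3.18e-07). For its paralog *RAB4A* the log2 fold change was 0.50 (SE 0.19) with an FDR of 0.0229, and −0.39 on library sizes. *RAB4B* (ENSSSCG00000002996) lies on chromosome 6, from 48989080 to 49010042.

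*RAB38*, known for the biogenesis of lysosome-related organelles such as melanosomes, was the lowest of the 5. It had 0.816, 0.832, 0.576 and 1.52 CPM in GV. In MII it had 0, 0.225, 0.610, 0 and 0.307 CPM, and in ‘damaged’ 0.301, 0, 0.120, 0.190 and 0.0663 CPM. One MII library lay above the lowest GV library, so the groups overlapped. The log2 fold change was −2.72 (SE 0.53, limma FDR 9.68e-05). With 12.1 to 36.5 counts in GV and 0 to 7.87 in matured libraries, *RAB38* passed the filter on low counts only through GV. A gene kept in this way can hardly be called higher, so its call is a description only. *RAB38* (ENSSSCG00000033878) lies on chromosome 9, from 21577083 to 21640637. Its close relative *RAB32*, with the same organelles as its known place of action, fell from 23.3 ± 4.89 to 6.82 ± 1.41 CPM, with a log2 fold change of −1.76 (SE 0.17) and no overlap.

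**Figure D3:**
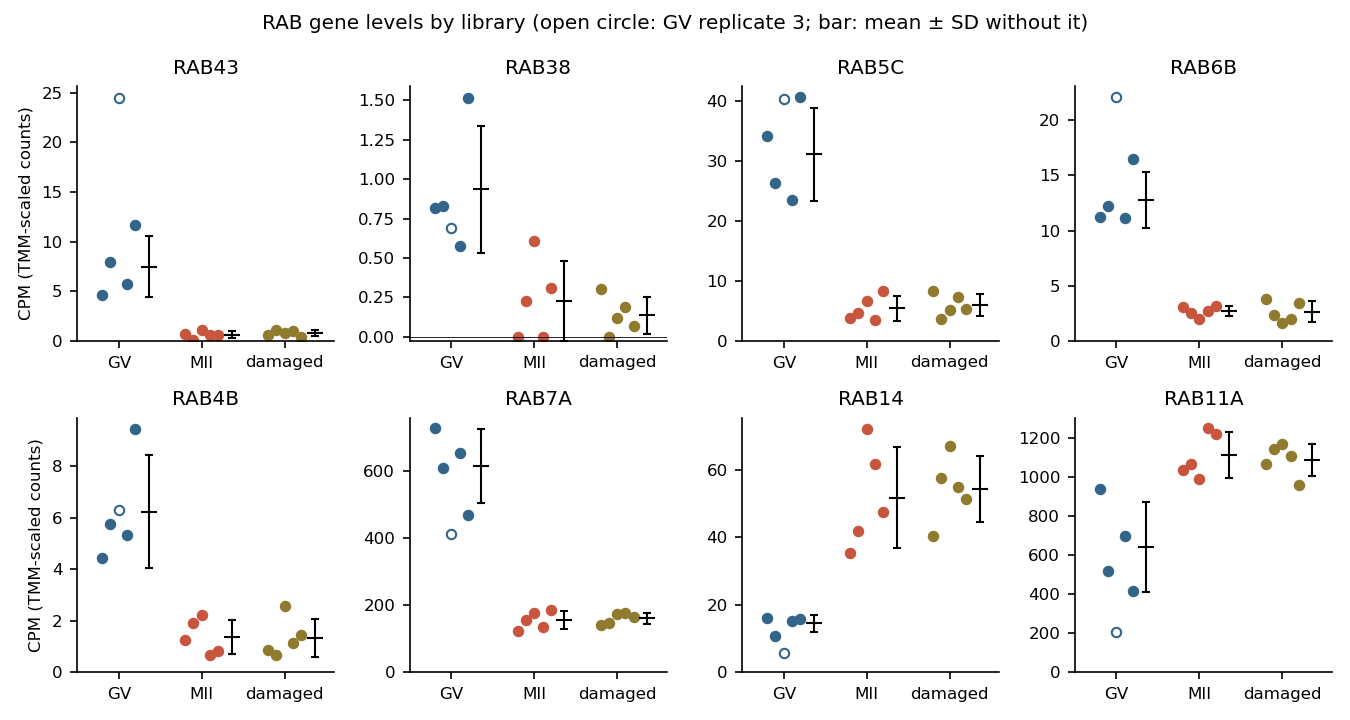
CPM after TMM scaling (vertical axes, 1 scale per gene) of 8 RAB genes in GV, MII and ‘damaged’ libraries, 1 point per library, with mean and SD beside them. The open circle is GV replicate 3, which the means leave out. RAB43, RAB5C, RAB6B, RAB4B and RAB7A are lower in every matured library than in every GV library, RAB38 is lower on average with overlap, and RAB14 and RAB11A are higher on this scale, RAB11A not so on library sizes (−0.055).

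*RAB14*, which acts between endosomes and the Golgi, had the largest rise of the family. It had 16.2, 10.7, 15.3 and 15.9 CPM in GV, 35.4, 42.0, 72.2, 61.7 and 47.4 CPM in MII, and 40.4, 57.7, 67.0, 54.9 and 51.4 CPM in ‘damaged’ libraries. Each matured library was above each GV library, on library sizes too. Its log2 fold change was 1.85 (SE 0.19, limma FDR 1.22e-08), and 0.96 on library sizes (FDR 0.000186). With GV replicate 3, at 5.84 CPM, included, it reached 2.07 and became an upregulated DEG. *RAB14* (ENSSSCG00000005514) has 1 transcript in the files and lies on chromosome 1, from 261228112 to 261256913.

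*RAB7A* was the highest-expressed RAB gene to fall. It had 728, 607, 652 and 469 CPM in GV. In MII it had 122, 154, 177, 136 and 186 CPM, and in ‘damaged’ 142, 146, 174, 177 and 166 CPM. No matured library came near a GV library. The log2 fold change of −1.95 (SE 0.13, limma FDR 1.56e-11) was just inside the DEG limit with TMM factors and past it on library sizes, at −2.84. *RAB7A* (ENSSSCG00000011615) lies on chromosome 13, from 71777422 to 71886758.

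*RAB11A* had 941, 520, 700 and 417 CPM in GV. It had 1038, 1069, 991, 1255 and 1225 CPM in MII and 1069, 1144, 1171, 1108 and 960 CPM in ‘damaged’ libraries. The highest GV library came within reach of the lowest matured one without overlap. Its log2 fold change was 0.84 (SE 0.15, limma FDR 3.32e-05) and −0.055 on library sizes. *RAB11A* (ENSSSCG00000032312) lies on chromosome 1, from 163858254 to 163887741.

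*RAB27A* had 154, 129, 126 and 97.5 CPM in GV, 248, 270, 245, 313 and 237 CPM in MII and 229, 288, 252, 264 and 215 CPM in ‘damaged’ libraries. These groups did not overlap, with a log2 fold change of 1.03 (SE 0.12, limma FDR 1.59e-07) that shrank to 0.13 on library sizes. *RAB1A* had 84.6 ± 8.77 CPM before and 139 ± 13.0 CPM after maturation without overlap, a log2 fold change of 0.72 (SE 0.11) that became −0.18 on library sizes. Over the 39 genes all matured libraries lay above all GV libraries for 5 (*RAB10*, *RAB11A*, *RAB14*, *RAB1A* and *RAB27A*; 12.8%, all genes 24.3%) and below them for 10 (25.6%, all genes 29.4%). On library sizes these counts were 1 and 23 (all genes 9.56% and 49.6%).

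GV replicate 3, outside the fits, had 24.5 CPM of *RAB43*, 40.4 of *RAB5C*, 22.1 of *RAB6B*, 6.30 of *RAB4B*, 0.688 of *RAB38* and 411 of *RAB7A*. Each of these was above the highest matured library. It had 5.84 CPM of *RAB14*, 209 of *RAB11A* and 101 of *RAB27A*, each below the lowest matured library. For *RAB11A* this was the lowest of all 15 libraries.

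The counts by role below stand beside 30.3% of all genes that rose and 37.2% that fell (12.1% and 60.5% on library sizes), and with so few genes a role they are descriptions only. By role, the 9 tested RABs of the ER and Golgi held 6 that fell, 1 that rose and 2 that did neither, with a median log2 fold change of −0.48. Besides those named, *RAB2B* (−0.43) and *RAB30* (−0.48) fell, and *RAB1B* fell by 1.51 from 1.52 ± 0.804 CPM in GV on 1 to 8 estimated counts per matured library. Among 12 of early and recycling endosomes 3 fell, 2 rose and 7 did neither, with a median of −0.21. There *RAB35*, of fast endocytic recycling, fell from 34.7 ± 13.2 to 15.7 ± 1.66 CPM without overlap (−1.08, SE 0.17).

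Of 7 RABs of late endosomes, lysosomes and autophagy 3 fell and 0 rose, with a median of −0.26. *RAB9A*, of late endosome to Golgi transport, had a log2 fold change of −0.26 that did not pass (limma FDR 0.291). Of 9 RABs of exocytosis and the plasma membrane 3 rose and 3 fell, with a median of −0.07. *RAB8A*, of secretory vesicles, rose by 0.53 (−0.37 on library sizes), while *RAB8B* (−0.45), *RAB3B* (−0.44) and *RAB3C* (−0.86) fell. In the last group of 2, *RAB23*, a regulator of Hedgehog signalling, fell from 12.3 ± 2.4 to 6.20 ± 1.05 CPM without overlap (−0.98, SE 0.16), and *RAB28* rose by 0.42 (−0.47 on library sizes). On library sizes the numbers that fell were 8 of the ER and Golgi, 9 of early and recycling endosomes, 6 of late endosomes, 6 of exocytosis and 2 of the last group.

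The 18 RAB GTPases among the members that were not tested were low, but not all were under the detection limit. *RAB36* had 9.03 to 23.4 counts in GV and 0 to 1.96 in matured libraries, and *RAB40C* 4.38 to 35.6 and 0 to 9.80. Their GV means of 0.805 and 0.867 CPM lay near that of *RAB38* (0.935 CPM), which was tested. The 15 with transcripts that did not pass the filter had at most 35.6 counts in any library, among them *RAB5B*, *RAB25* and *RAB40C*. The transcripts of *RAB17*, *RAB20* and *RAB9B* were not found. *RAB17* and *RAB9B* had a count of 0 in each of the 8 gene table columns used, and *RAB20* at most 0.983. *RAB18* and *RAB24* were not analysed here. The 2 genes that are no GTPases, *RAB3IP* and *RAB5IF*, fell, with log2 fold changes of −0.68 and −1.04.

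To compare paralogs without any scaling between libraries, the log2 ratio of their counts, each plus 0.5, was taken within each library for 11 pairs of the same number and for *RAB11A* over *RAB7A*. These ratios were chosen with results known. A changed ratio shows that the pair changed unequally, not which of them changed. The share of other gene pairs that would pass was not computed. As 30.3% of all genes rose and 37.2% fell, many other pairs may pass too. The counts and p-values below therefore describe these pairs and are no result about paralogs. A two-sided exact permutation test with 1001 arrangements of the library labels gave an adjusted p under 0.05 for 9 of 12 ratios, and 7 did not overlap between MIX and GV. The 6 non-overlapping paralog ratios were *RAB2A* to *RAB2B*, *RAB4A* to *RAB4B*, *RAB5A* to *RAB5C*, *RAB6A* to *RAB6B*, *RAB8A* to *RAB8B* and *RAB27A* to *RAB27B*, each with p = 0.000999, the smallest it can give (adjusted p = 0.00171, exact permutation).

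The log2 ratio of *RAB4A* to *RAB4B* was 0.037 ± 0.59 in GV (n = 4) and 2.80 ± 0.84 in MIX (n = 10), and rose in MIX by 2.77. *RAB5C* counts exceeded *RAB5A* in all 4 GV libraries, with a log2 ratio of *RAB5A* to *RAB5C* of −2.30 ± 0.38, whereas in MIX the ratio was 0.22 ± 0.45. The ratio of *RAB6A* to *RAB6B* went from 3.06 ± 0.17 to 4.60 ± 0.66. Between the 2 leading genes, *RAB11A* over *RAB7A*, it went from 0.020 ± 0.27 to 2.81 ± 0.23. In TPM this was a mean ratio of 1.27 in GV and 8.77 in MIX. The 3 ratios among *RAB3A*, *RAB3B* and *RAB3C* did not pass (exact permutation, smallest adjusted p = 0.180), although without GV replicate 5 that of *RAB3B* to *RAB3C* did, with an adjusted p of 0.0105. That of *RAB11A* to *RAB11B* passed (adjusted p = 0.0266, exact permutation) but did not without GV replicate 2 (0.0932) or replicate 5 (0.113).

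Against GV, MII and ‘damaged’ libraries were also fitted apart, with the GV libraries shared by both. The same 5 genes were downregulated DEGs in MII (12.8%, all genes 17%) and in ‘damaged’ oocytes (12.8%, all genes 16.4%). Their log2 fold changes in MII and ‘damaged’ were −3.75 and −3.22 for *RAB43*, −2.67 and −2.76 for *RAB38*, −2.57 and −2.41 for *RAB5C*, −2.23 and −2.33 for *RAB6B*, and −2.31 and −2.26 for *RAB4B*. By FDR 5 RAB genes rose and 13 fell in MII (all genes 28.2% and 34.2%), and 4 rose and 11 fell in ‘damaged’ (all genes 28% and 33.4%). Upregulated DEGs were 0 in both by limma, edgeR and DESeq2, against 4.51% and 4.08% of all genes. On library sizes 9 were downregulated DEGs, 1 rose and 28 fell in MII (all genes 29.4%, 10.9% and 57.5%), and 7, 1 and 28 in ‘damaged’ (all genes 27.8%, 11.2% and 56%), with 0 upregulated DEGs in either (all genes 0.363% and 0.333%). For *RAB14* the values were 1.81 and 1.90, and for *RAB7A* −1.98 and −1.91.

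Between MII and ‘damaged’ 0 of 39 RAB genes passed the test by limma (0 of all 13228 genes, 0%), and 0 had an unadjusted p under 0.05 by limma, edgeR or DESeq2. By limma 194 of all genes (1.47%) had such a p, so a count of 0 among 39 is no result about the RAB genes. Log2 differences of MII minus ‘damaged’ ran from −0.89 for *RAB1B* to 0.32 for *RAB5A*. The 3 genes with the smallest unadjusted p were *RAB6A* (−0.31, SE 0.19), *RAB3B* (0.23, SE 0.14) and *RAB1B* (−0.89, SE 0.55), each with a limma FDR that rounds to 1.00. In *RAB6A* MII libraries had 63.6, 58.3, 54.1, 82.3 and 36.0 CPM and ‘damaged’ libraries 70.7, 81.3, 90.2, 65.1 and 52.2 CPM, which overlapped. The widths of these errors do not show that the groups were alike. Of the 12 ratios the smallest adjusted p between MII and ‘damaged’ was 0.381 by exact permutation.

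Genes that regulate or read RAB proteins were taken from 4 lists of 120 genes, of which 96 were tested. In MIX against GV 30 rose and 37 fell (15 and 65 on library sizes), with 7 upregulated and 16 downregulated DEGs (0 and 22 on library sizes, by limma). The shares over all genes were 30.3% and 37.2% that rose and fell, close to these, and 4.27% and 16.7% for upregulated and downregulated DEGs. On library sizes 12.1% and 60.5% of all genes rose and fell, and 0.348% and 28.6% were such DEGs. Escort, recycling and prenylation genes held 1 that rose and 2 that fell of 7 (1 and 5 on library sizes). *CHM*, the escort protein that presents RABs for prenylation, rose by 1.42, from 22.2 ± 5.30 to 58.9 ± 9.28 CPM (0.52 on library sizes). *RABAC1* (−3.02), which takes part in the membrane delivery of RABs, fell, while *GDI2*, which retrieves them from membranes, at 209.7 ± 41.6 and 185 ± 47.5 CPM, did not pass the test.

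Of 24 exchange factors 7 rose and 12 fell (3 and 17 on library sizes), against 30.3% and 37.2% of all genes (12.1% and 60.5% on library sizes). The upregulated DEGs were *DENND4C*, known to act on RAB10 (2.57), *DENND2C* (2.23) and *HPS4* (2.72), while *HPS1*, the partner of HPS4 in the exchange factor for RAB32 and RAB38, was a downregulated DEG (−2.53). *MON1A*, a subunit of the RAB7 exchange factor, fell from 28.5 ± 4.83 to 2.27 ± 0.658 CPM (−3.65, SE 0.18). Its paralog *MON1B*, at 60.8 ± 21.6 and 42.7 ± 14.8 CPM, had a log2 fold change of −0.49 that did not pass (limma FDR 0.0424), but did without GV replicate 1 (−0.71) or ‘damaged’ replicate 5 (−0.58). *RGP1*, of the RAB6 exchange factor, fell (−2.08), while its partner *RIC1* rose from 40.2 ± 2.82 to 99.6 ± 23.6 CPM (1.27, and 0.38 on library sizes with an FDR of 0.0451).

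Of 30 GAPs 9 rose and 12 fell (6 and 21 on library sizes), with TMM factors close to the 30.3% and 37.2% of all genes. On library sizes 12.1% and 60.5% of all genes rose and fell. *TBC1D15*, known to act on RAB7, rose from 84.8 ± 23.1 to 499.6 ± 63.1 CPM (2.59, SE 0.14), and *RABGAP1* (2.22) and *RAB3GAP1* (2.37) were the other upregulated DEGs. The 5 downregulated DEGs were *TBC1D25* (−2.87), *TBC1D24* (−2.83), *TBC1D1* (−2.81), *TBC1D10B* (−2.78) and *SGSM2* (−2.57). Of 35 effectors 13 rose and 11 fell, against 30.3% and 37.2% of all genes, and on library sizes 5 rose and 22 fell (all genes 12.1% and 60.5%). *EHBP1*, an effector of RAB8 and RAB10, was the upregulated DEG (2.31), and the RAB11 effectors *RAB11FIP4* (−3.67) and *RAB11FIP5* (−4.22) were among 4 downregulated DEGs, at 0.348 ± 0.210 and 0.121 ± 0.108 CPM in MIX. The third of this family tested, *RAB11FIP2*, rose from 6.99 to 13.5 CPM (0.91, and 0.021 on library sizes). The 7 upregulated DEGs of these lists remained above GV on library sizes, with log2 fold changes of 1.33 to 1.82. Between MII and ‘damaged’ 0 of the 96 passed by limma, edgeR or DESeq2, and 1 had an unadjusted p under 0.05 by each.

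A transcript share is the TPM of a transcript as a percent of its gene's TPM in 1 library, and dIF is the difference of mean shares in percentage points. Kallisto divides reads between transcripts by likelihood, so shares of transcripts that overlap in sequence, and of paralogs, are uncertain. Shares were tested with the DEXSeq model (fitted in DESeq2), and a transcript was called at an FDR under 0.01 and a dIF over 10 points. Only genes that held a dIF over 10 points between the groups compared were tested, and this is also a condition of a call. The percentages called are thus among genes picked on that difference, not among all genes. Of the RAB genes 28 had at least 2 transcripts. For MIX against GV 63 transcripts of 18 RAB GTPase genes were tested and 27 were called (42.9%, all transcripts tested 43.1%), in 14 genes (77.8%, all genes tested 63.2%). Of these 15 had a higher share in MIX (all transcripts 22.1%) and 12 a lower one (all transcripts 21%).

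*RAB3B*, which tethers and docks secretory vesicles, has 2 transcripts, of 4153 and 4710 bases. The 4153-base transcript took 40.6, 32.5, 32.2 and 37.3% in GV. It took 78.9, 75.3, 81.9, 77.1 and 84.9% in MII and 78.7, 77.9, 78.8, 83.2 and 67.9% in ‘damaged’ libraries. The minor form in every GV library was thus the major one in every matured library. The dIF was 42.8 points (DEXSeq model, FDR 4.12e-29), on 295 to 917 counts per library.

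*RAB7A* has 9 transcripts, and 4 were called. The 2080-base transcript took at most 0.0347% in GV, and 31.9, 26.1, 30.7, 48.6 and 39.7% in MII and 29.3, 24.2, 44.9, 42.3 and 36.3% in ‘damaged’ libraries. It was near absent in GV and substantial in each matured library, with a dIF of 35.4 points (DEXSeq model, FDR 3.08e-85). Against this the 4788-base transcript went from 32.5% ± 2.50 in GV to 0.907% ± 1.06 in MIX, and the 1955-base transcript from 53.9% ± 2.33 to 18.9% ± 9.18. The 2027-base transcript went from 2.04 to 14.2%, a call lost without any one of the 4 GV libraries or of 8 matured ones (all but MII replicates 1 and 4), with dIF of 11.0 to 12.6 points, and with a replicate block (FDR 0.0527).

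*RAB8A* has 3 transcripts, all called. Its 3136-base transcript took 34.3, 84.8, 44.3 and 91.0% in GV, 10.8, 12.0, 6.33, 14.9 and 15.6% in MII and 14.6, 17.5, 14.9, 14.8 and 10.5% in ‘damaged’ libraries. The GV values were widely spread but all lay above the matured ones. The dIF was −50.4 points (DEXSeq model, FDR 7.18e-07), and the 1856-base transcript gained 40.4 points, which did not pass without GV replicate 2 (34.1 points). The third, of 1706 bases, gained 10.02 points and fell under the limit on dIF without any one of 7 libraries.

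In *RAB35* the 2990-base transcript took 29.4, 8.19, 29.8 and 24.9% in GV. It took 23.1, 83.0, 93.0, 87.8 and 100% in MII and 75.8, 86.4, 62.8, 65.1 and 59.4% in ‘damaged’ libraries. MII replicate 1 stayed in the GV range and the other 9 matured libraries lay above it. The dIF was 50.6 points (DEXSeq model, FDR 0.00231), mirrored by −50.7 points for the 2791-base transcript. Neither passed without GV replicate 2 (45.6 and −45.6 points).

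For *RAB10* the 1153-base transcript took 9.37% ± 3.24 in GV and 34.7% ± 11.11 in MIX, and every matured library, from 22.8% up, was above the highest GV library at 13.5%. The 3513-base transcript lost the same 25.3 points. For *RAB2A* the 1812-base transcript went from 42.6% ± 7.63 to 12.1% ± 5.36 without overlap. For *RAB9A* the 1234-base transcript went from 50.5% ± 8.86 to 21.7% ± 6.33, also without overlap. *RAB31*, an endosomal RAB5 relative, went from 47.0% ± 8.35 to 15.8% ± 10.9 in its 1563-base transcript, a call lost without GV replicate 1 or 2 (−27.5 and −30.5 points) and by diffSplice.

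The shares of *RAB11B* and *RAB1B* moved most, on the fewest counts. In *RAB11B* the 1676-base transcript went from 89.9% ± 10.4 to 16.3% ± 17.9, with 10 to 22 counts of the gene per matured library. In *RAB1B* the 2379-base transcript went from 91.9% ± 8.55 to 16.8% ± 17.4, with 1 to 8 counts. The other genes with called transcripts were *RAB1A*, *RAB2B*, *RAB28* and *RAB4B*, with dIF up to 16.3 points in size. The called transcript of *RAB4B*, of 651 bases, and the 1752-base one of *RAB28* each lost the call without any one of 8 or 9 libraries. By diffSplice neither the 1582-base nor the 1752-base transcript of *RAB28* passed (FDR 0.0606 and 0.0942). *RAB11A*, the highest-expressed RAB, was not among the 18 genes tested, as only genes with a dIF over 10 points were. Its 596-base transcript took 70.0% ± 6.12 in GV and 62.4% ± 3.27 in MIX, and 13.4% in GV replicate 3.

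**Figure D4:**
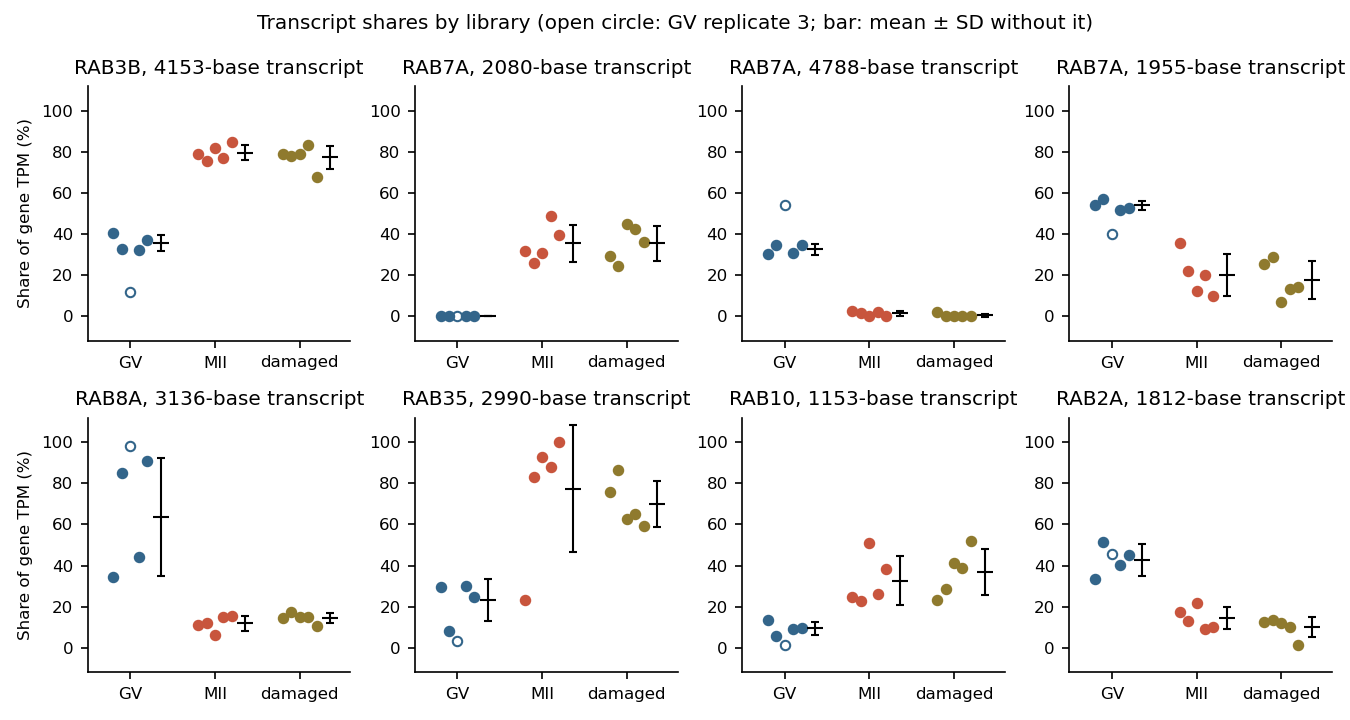
Share of gene TPM (vertical axes, percent) of 8 transcripts of RAB3B, RAB7A, RAB8A, RAB35, RAB10 and RAB2A in GV, MII and ‘damaged’ libraries, 1 point per library, with mean and SD (open circle: GV replicate 3, not in the mean). The 2080-base RAB7A transcript lies at or near 0 in GV and between 24.2 and 48.6% after maturation, and MII replicate 1 of RAB35, at 23.1%, lies apart from the other matured libraries.

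To see whether transcript shares lengthened or shortened, the mean transcript length of each gene was weighted by TPM. It was shorter in MIX than in GV for 14 of 28 RAB genes with at least 2 transcripts, and for 56.8% of 5933 genes in all. The median ratio of MIX to GV length was 1.00 for the RAB genes and 0.997 for all. It ranged from 0.502 for *RAB1B* to 1.29 for *RAB31*.

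Between MII and ‘damaged’ 9 transcripts of 2 RAB genes, *RAB4B* and *RAB11B*, were tested and 1 was called, lower in MII, against 0.077% of all transcripts and 0.23% of all genes tested. This was the 1149-base transcript of *RAB4B* (ENSSSCT00000092988.1). Its estimated count was 0 in each of the 5 MII libraries. In ‘damaged’ replicates 1 to 5 it took 88.8, 79.5, 21.3, 37.7 and 49.4% of *RAB4B*, from 10.9, 7.76, 9.84, 7.42 and 11.5 counts. In GV replicates 1, 2, 4 and 5 it took 74.3, 19.4, 42.7 and 8.64%. The GV libraries thus overlapped the ‘damaged’ ones and reached below them.

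The DEXSeq model gave a dIF of −55.3 points with an FDR of 0.00520. A two-sided exact permutation test over 252 arrangements of 10 libraries, applied after this call was seen, gave p = 0.00794, the smallest such a test can give. It rests on the same libraries and on the separation already seen in them, so it adds no support to the call. All 5 MII libraries together held 78.0 *RAB4B* counts, and a count of 0 allows a share of up to 3.85%. Library by library the totals were 13.1 to 20, which allow 15.0 to 22.9%. Limits cover counting error only. The ‘damaged’ libraries together held 47.4 of 102 counts. The call was lost without MII replicate 1 (FDR 0.0287), 2 (0.0149) or 4 (0.0146), without ‘damaged’ replicate 2 (0.0476) or 5 (0.0157), and with no filter on dIF before the test (0.0204).

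The longest *RAB4B* transcript, of 1673 bases (ENSSSCT00000003328.5), took 14.2, 0, 6.11, 18.1 and 29.3% in MII and 11.2, 19.1, 13.8, 6.86 and 3.48% in ‘damaged’ libraries. These overlapped, with a difference of 2.64 points (two-sided exact permutation, p = 0.675). The 1108-base transcript, the main one in 3 of 4 GV libraries, took 45.1% ± 19.0 in MII and 18.5% ± 26.1 in ‘damaged’ oocytes and did not pass (DEXSeq model, FDR 0.419). At the level of the whole gene MII and ‘damaged’ oocytes had 1.38 ± 0.672 and 1.34 ± 0.747 CPM (n = 5 each).

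**Figure D5:**
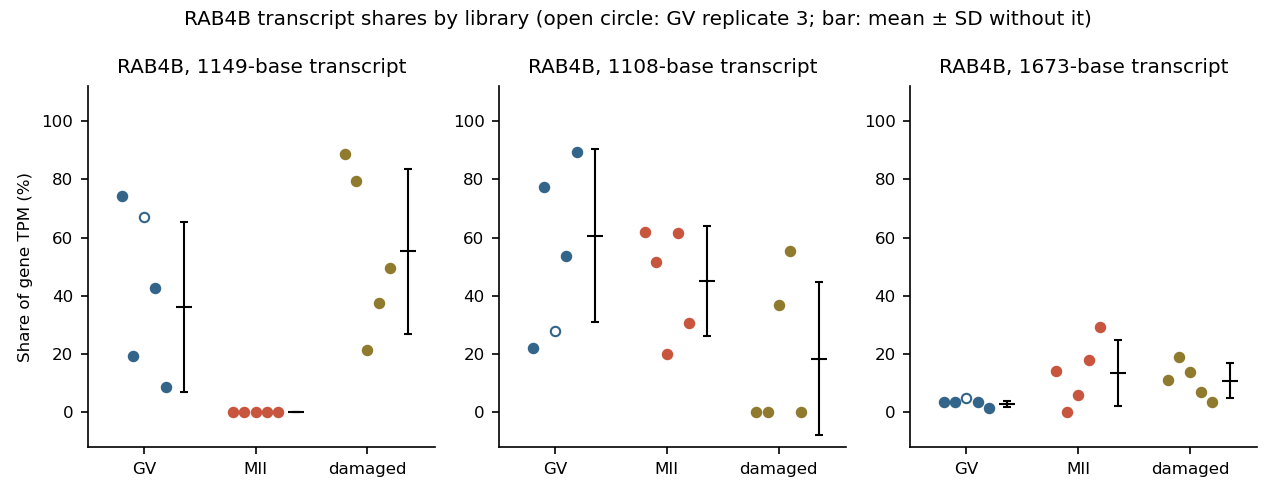
Share of RAB4B TPM (vertical axes, percent) of its 1149-base, 1108-base and 1673-base transcripts in GV, MII and ‘damaged’ libraries, 1 point per library, with mean and SD (open circle: GV replicate 3, not in the mean). The 1149-base transcript is at 0 in each MII library and at 21.3 to 88.8% in ‘damaged’ libraries, while the GV libraries in the fit spread from 8.64 to 74.3%.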

How the data were processed

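The authors estimated counts and TPM per transcript with Kallisto 0.43 on Sscrofa11.1 from single-end reads of poly(A) RNA, as deposited without normalization across libraries. The deposited gene counts are estimated counts made by the authors with tximport (lengthScaledTPM). Reads carry no strand mark, so antisense genes cannot be told apart. Of 15 gene table columns 8 matched the total of the library they name, and 7 were not used. Transcripts were placed in 17456 genes by matching both kinds of file, and gene counts of all libraries were computed by the same formula, within 0.00791% of the deposited values. On simulated data 99.2% of 13184 genes were placed exactly. Symbols came from the gene name table, and positions of 57 RAB genes from RefSeq by symbol.

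Differences in gene counts were computed with limma-voom (limma 3.58.1, R 4.3.3) after filterByExpr and TMM of edgeR 4.0.16, on 14 libraries without GV replicate 3, the shallowest, as the study left out its shallowest GV library. MIX was fitted against GV, and MII, ‘damaged’ and GV in a fit of 3 groups. Shares were tested with the DEXSeq model in DESeq2 1.42.0 for genes over 1 TPM that held a dIF over 0.1, leaving out transcripts with an isoform fraction of 0.05 or less. Both were also run on simulated data, with changes put only into genes above a minimum level. That minimum leaves out genes as low as *RAB38* and *RAB1B*, and for shares also *RAB4B*. Depth was 12.0 to 23.6 M in the libraries fitted, and limits for a count of 0 use 3 counts. Python 3.11.15 (numpy 2.4.6, pandas 2.3.3, scipy 1.17.1, matplotlib 3.10.9) was used for the rest.

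The members and lists were chosen with earlier results of these data known. Genes named with values per library were DEGs, the 5 highest in GV and in MIX, those with called transcripts (up to 10), the 3 with the smallest p between MII and ‘damaged’, and members with a known role in oocytes. *RAB2B*, *RAB3C*, *RAB13*, *RAB28*, *RAB30*, *RAB32*, the genes of other lists and the paralog ratios were added after their values were seen. Alternatives were library sizes, edgeR, DESeq2, no filter, all 5 GV libraries, summed estimated counts, limma diffSplice, a replicate block and leaving out each library. The values of 1 gene of the other lists are not reported here.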

Additional observations from a re-analysis of the deposited data

Results flagged for a closer look

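Of 165 groups of 4 or 5 libraries examined for a library far from the others of its group (55 genes in 3 groups, CPM with TMM factors), 13 were marked, where chance marks about 1 in 20. *RAB14* had 10.7 CPM in GV replicate 2 against 15.3 to 16.2 in the other 3 GV libraries. *RAB1B* had 2.70 CPM in GV replicate 5 against 0.928 to 1.22, and its fall no longer passed without that library (log2 fold change −1.17). *RAB5A* had 9.66 CPM in ‘damaged’ replicate 1 against 4.35 to 5.50, and *RAB8A* 24.2 CPM in ‘damaged’ replicate 5 against 16.4 to 18.2. ‘Damaged’ replicate 3 held the highest *RAB9A*, with 93.2 CPM against 34.9 to 40.2, and the highest *RAB3IP*, with 137 CPM against 67.3 to 79.9. Among the genes of other lists, *DENND4C* had 300.05 CPM in ‘damaged’ replicate 2 against 239 to 255, *EHBP1* 38.8 CPM in GV replicate 1 against 25.7 to 27.3, and *MON1B* 83.6 CPM in ‘damaged’ replicate 5 against 31.0 to 42.6. *TBC1D10B* had 1.48 CPM in MII replicate 3 against 0.799 to 0.985, *TBC1D25* 0.262 CPM in MII replicate 4 against 0.451 to 0.492, and *RAB11FIP5* 0.306 CPM in MII replicate 3 against 0.0941 to 0.151 and 0.302 CPM in ‘damaged’ replicate 1 against 0 to 0.0636.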

How the results depend on the processing

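On library sizes without normalization factors the RAB DEGs that were lower numbered 8 in MIX and 9 in MII against GV (with TMM factors 5 and 5), those that fell 31 in MIX, 28 in MII and 28 in ‘damaged’ oocytes (16, 13 and 11), and those that rose 1 in each (7, 5 and 4). The same setting turned *RAB10* to −0.59, *RAB11A* to −0.055, *RAB13* to −0.048, *RAB28* to −0.47, *RAB1A* to −0.18, *RAB2A* to −0.66, *RAB4A* to −0.39, *RAB5A* to −0.86 and *RAB8A* to −0.37. With all 5 GV libraries 1 RAB gene, *RAB14*, was an upregulated DEG in each of the 3 comparisons with GV, *RAB5A* stood at −0.028 and the ratio of *RAB3A* to *RAB3C* at −0.40. In that setting *RAB13*, *RAB28*, *RAB2B*, *RAB8B* and *RAB3C* no longer passed for MIX against GV. DESeq2 gave 8 that rose in MII, and summed estimated counts gave 0.38 for *RAB31* and 0.089 for *RAB3IP*. Leaving out 1 library at a time gave 5 to 6 lower DEGs, 13 to 16 that fell and 4 to 8 that rose for MIX (4 without GV replicate 4 or 5), 5 to 7, 10 to 14 and 4 to 6 for MII, and 5 to 6, 11 to 13 and 4 to 5 for ‘damaged’, with 0 upregulated DEGs throughout. Called RAB transcripts then ranged from 20 to 26 for MIX against GV and from 0 to 1 for MII against ‘damaged’, and the latter was 0 with no filter on dIF before the test, an alternative chosen after seeing the data. The difference of the 1149-base *RAB4B* transcript ranged from −63.8 to −47.0 points and that of the longest from −1.30 to 6.03, turning negative without MII replicate 5. *RAB31* ranged from −0.13 to 0.011, *RAB5A* from −0.030 to 0.13, and the ratios of *RAB3A* to *RAB3C* from −0.28 to 0.78 and to *RAB3B* from −0.45 to 0.020. Cause of these moves was not tested.

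Same-numbered libraries correlated above 0.1 in 7 of 13 pairs (−0.25 to 0.57), and 7 of 14 libraries correlated best with their own number. The share expected without pairing was not computed. As the labels do not tie numbers to collections, the main fits did not pair libraries, and pairing by number remains possible. A replicate block changed none of the counts by over 1.5 times, with 5 lower DEGs, 15 that fell and 8 that rose for MIX against GV. For the 1149-base *RAB4B* transcript the block gave −55.3 points with p = 0.0625, the smallest that exact permutation within 5 pairs can give. With the block *RAB3B* (−0.39) and the 2027-base *RAB7A* transcript no longer passed and *RAB4A* did (0.56). Depth limits *RAB1B*, *RAB38*, *RAB43*, *RAB11B*, *RAB3A*, *RAB27B* and *RAB4B*, with at most 8, 8, 15.8, 22, 23, 30 and 40.6 estimated counts in a matured library.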
